A study of Homo sapiens with 24 samples.

Results

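The response of BEAS-2B cells to TNFα and IFNγ was read in RNA that came down with an IgG1 isotype control antibody, 3 h after the cytokines were added. BEAS-2B is a human bronchial epithelial cell line. The comparison held 6 of the 24 arrays of the series, chosen by their labels: 3 from cells given TNFα and IFNγ for 3 h, each at 50 ng/ml, and 3 from cells left in PBS for 3 h. Each group carried the replicate numbers 1, 3 and 4, called sets here, and a stimulated array was paired with the untreated array of its set. The design text calls the IP experiments biological replicates. The rest of the series repeated the treatments with an antibody to HuR, an RNA-binding protein, and at 18 h. Controls and stimulated cells alike were BEAS-2B cells without a named genetic change. An isotype control antibody is not raised against a cellular protein, so the RNA in these precipitates is RNA that stayed with the beads and antibody without selection for HuR. What share of the cell's RNA that was, and whether it mirrors the total RNA, was not measured.

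TNFα binds TNF receptor 1 and, through TRAF adaptors and the IKK kinases, frees NF-κB from its IκB inhibitors. NF-κB then switches on chemokines, adhesion molecules and the genes of its own inhibitors. IFNγ acts through JAK kinases and STAT proteins, which bind gamma-activated sites in promoters and induce IRF1, a transcription factor of a second wave of genes. Airway epithelial cells use both routes to draw leukocytes to the airway wall.

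Each array gave 1 intensity for each of 355 transcripts of inflammation and signalling. The median intensity was 9636, 5450 and 17017 on the untreated arrays of sets 1, 3 and 4, and 13678, 3958 and 16710 on the stimulated ones. Levels are therefore given as log2 intensity minus the median of the array, so that a level of 0 is the middle transcript of its array. In such a bulk sample, more cells expressing a transcript and more RNA per cell cannot be told apart. The dimmest transcript lay 0.61 to 0.68 below the median on the untreated arrays (levels of -0.68, -0.61 and -0.66), so that a level near 0 may hold mostly background. None of the epithelial markers on the list used here was measured, so the epithelial identity could not be checked. Of 27 leukocyte markers 10 were measured, with levels from -0.48 to 1.22 on the untreated arrays. Their changes with stimulation lay between -0.26 and -0.02, and 0 of the 10 passed the test, against 2.54% of all transcripts. Of all 355 transcripts 242 were below 0, with a median change of -0.09.

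Set 1 stood apart. Over the 355 transcripts, the levels of its untreated array correlated with those of sets 3 and 4 at 0.446 and 0.462, while sets 3 and 4 correlated at 0.902. These correlations are across transcripts, which are not independent replicates. Results are given with and without set 1 where that moves them.

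Stimulation raised 9 of the 355 transcripts at 3 h (2.54%), and lowered none. They were the chemokines CXCL8, CCL2, CCL8 and CXCL1, the adhesion molecule ICAM1, the cytokine IL6, the transcription factor IRF1, and NFKBIA and TNFAIP3, which both restrain NF-κB. The changes ran from 1.82 to 4.00 on the log2 scale, or 3.54-fold to 16.0-fold, over 3 arrays per group. In each of the 9, all 3 stimulated arrays lay above all 3 untreated ones, as they did for 20 of all 355 transcripts (5.63%). The test was limma on all 24 arrays with the set as a block, at a Benjamini-Hochberg adjusted p under 0.05 over 355 transcripts. At an unadjusted p under 0.05 there were 19 higher and 3 lower. Without the block 4 passed (1.13%), namely CXCL8, IRF1, IL6 and TNFAIP3. Without set 1 there were 18, and without set 3 or set 4 there were 0. Quantile normalisation gave 13 higher and 3 lower.

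**Figure D1:**
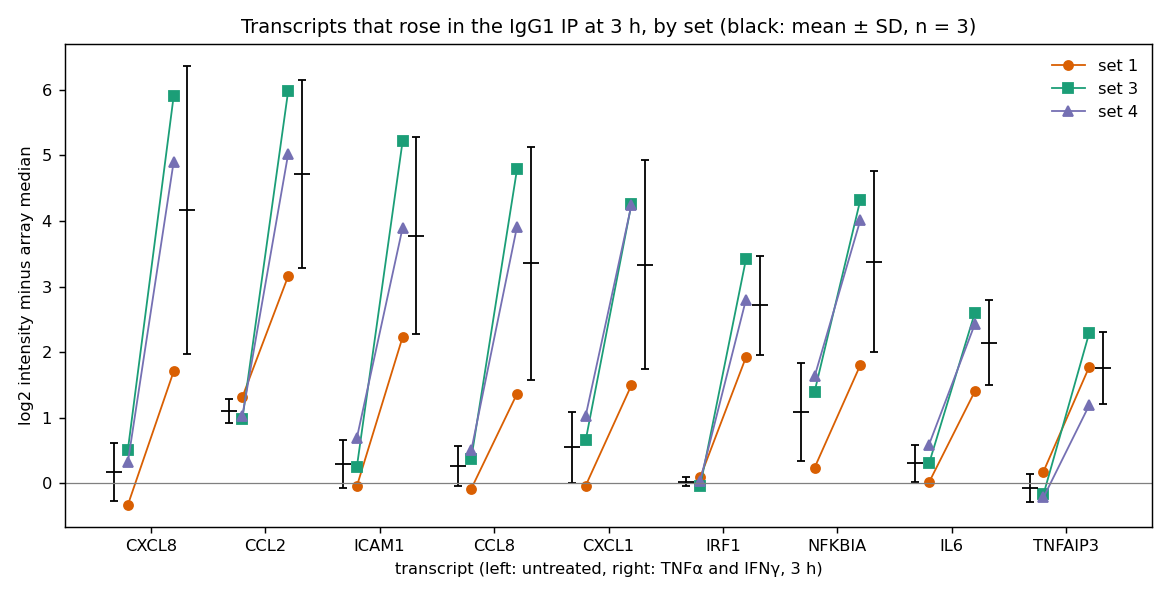
Levels of the 9 transcripts that rose, as log2 intensity minus the array median, with 1 line per set from the untreated to the stimulated array and black bars for mean ± SD (n = 3). Every line rises, and for 8 of the 9 the line of set 1 rises least.

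IRF1 gave the smallest p. Its level was 0.09, -0.05 and 0.03 on the untreated arrays of sets 1, 3 and 4, and 1.92, 3.41 and 2.80 on the stimulated arrays. The untreated arrays thus lay close together at the middle of the array, and every stimulated array stood well above them. The rise was 2.69 ± 0.38 (SE, 3 arrays in each group, a 6.43-fold rise, limma adjusted p = 0.000621, and adjusted p = 0.0162 without the block). With normexp background correction it was 3.73. It was 2.30 without set 3 (limma adjusted p = 0.0728) and 2.65 without set 4 (adjusted p = 0.461). CIITA, the master regulator of MHC class II genes and a later IFNγ target, stood at -0.16 ± 0.22 and did not pass.

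The promoter of IRF1 is shown because the start of this gene holds a match to both motifs searched. The window, from RefSeq on GRCh38.p14, runs from 250 bases before to 50 bases after the annotated start, at chr5:132490724-132491023 on the minus strand. Capitals mark the gamma-activated site, TTCNNNGAA, first, and the NF-κB consensus second, both searched on both strands.

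IRF1: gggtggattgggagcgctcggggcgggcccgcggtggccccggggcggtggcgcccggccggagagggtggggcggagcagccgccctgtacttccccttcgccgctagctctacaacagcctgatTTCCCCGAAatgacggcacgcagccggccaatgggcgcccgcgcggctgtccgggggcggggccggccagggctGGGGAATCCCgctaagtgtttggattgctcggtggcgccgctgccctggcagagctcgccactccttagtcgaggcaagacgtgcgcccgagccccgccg

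The match to the gamma-activated site starts 124 bases before the start of the gene and the NF-κB match 50 bases before it. Of 27305 promoters of the same length, 1 per gene, 7.88% held the first motif and 10.8% the second. Among the 271 measured genes with a promoter entry the shares were 9.96% and 18.1%. A match is a run of letters and was not tested for binding.

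Among chemokines that draw neutrophils, CXCL8 and CXCL1 rose. CXCL8, or interleukin-8, had intensities of 7673, 7775 and 21292 on the untreated arrays of sets 1, 3 and 4. On the stimulated arrays they were 44654, 237232 and 500364. Relative to the array median that was -0.33, 0.51 and 0.32 before and 1.71, 5.91 and 4.90 after. CXCL8 went from near the middle of the array to far above it in sets 3 and 4, and less far in set 1. The rise was 4.00 ± 0.76 (SE, 16.0-fold, adjusted p = 0.00477, and adjusted p = 0.0267 without the block). It was 4.99 without set 1, 3.31 without set 3 (limma adjusted p = 0.196) and 3.71 without set 4 (adjusted p = 0.724). With normexp background correction it was 5.24.

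CXCL1, which shares its receptor CXCR2 with CXCL8, stood at -0.04, 0.66 and 1.03 in untreated and at 1.5, 4.26 and 4.25 in stimulated cells. The groups did not overlap, and the rise was 2.79 ± 0.67 (6.89-fold, adjusted p = 0.0285, and adjusted p = 0.198 without the block). It was 3.41 without set 1 and 2.08 with quantile normalisation. CXCL2, its close relative, went from 1.62, 0.43 and 1.30 to 2.60, 4.49 and 4.53, with a change of 2.75 ± 0.78 that did not pass (adjusted p = 0.0785). Its 2 groups did not overlap either, and without set 1 it passed at 3.64 (adjusted p = 0.00199). CXCL3, CXCL6 and CXCL5, of the same family, stood at 0.43 ± 0.41, 0.06 ± 0.19 and -0.11 ± 0.22. CXCL1, CXCL2 and CXCL3 have similar sequences, so their probes may share signal. The same holds for CCL2, CCL7, CCL8 and CCL13.

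The promoters of CXCL1 and CXCL8 are set side by side because both transcripts rose and only CXCL1 matched the consensus. They lie at chr4:73869143-73869442 and chr4:73740319-73740618, both on the plus strand of GRCh38.p14.

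CXCL1: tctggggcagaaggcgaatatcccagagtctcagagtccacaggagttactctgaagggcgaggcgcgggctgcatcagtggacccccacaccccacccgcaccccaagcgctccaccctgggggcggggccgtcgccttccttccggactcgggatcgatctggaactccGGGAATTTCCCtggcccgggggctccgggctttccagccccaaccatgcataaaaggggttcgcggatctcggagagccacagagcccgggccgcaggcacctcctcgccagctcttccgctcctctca

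CXCL8: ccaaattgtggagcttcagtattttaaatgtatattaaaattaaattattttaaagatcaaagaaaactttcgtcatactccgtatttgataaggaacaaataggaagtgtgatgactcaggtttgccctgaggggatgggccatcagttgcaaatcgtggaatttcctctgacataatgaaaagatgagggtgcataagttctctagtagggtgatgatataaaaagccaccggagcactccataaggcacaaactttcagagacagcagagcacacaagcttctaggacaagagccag

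The capitals in CXCL1 are 2 matches that overlap, 1 on each strand, 79 and 78 bases before the start. CXCL8 has no capitals because neither motif occurs in these letters. That says nothing about which factors bind there.

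Among chemokines that draw monocytes, CCL2 and CCL8 rose. CCL2, also called MCP-1, stood at 1.31, 0.98 and 1.03 on the untreated arrays, close together and above the median of each array. On the stimulated arrays it was 3.16, 5.98 and 5.02, a rise of 3.61 ± 0.89 (SE, 12.2-fold, adjusted p = 0.0307, and adjusted p = 0.0530 without the block). CCL8, or MCP-2, went from -0.08, 0.38 and 0.50 to 1.37, 4.79 and 3.91, a rise of 3.09 ± 0.74 (8.53-fold, adjusted p = 0.0285, and adjusted p = 0.151 without the block). Without set 1 the changes were 4.50 for CCL2 and 3.91 for CCL8. Without set 3 they were 2.92 and 2.43 (limma adjusted p = 0.227 and 0.217), and CCL8 was at 3.82 with normexp. Without set 4 CCL2 and CCL8 were at 3.42 and 2.93 (adjusted p = 0.990 for both). In both, the lowest stimulated array was that of set 1, and it still lay above every untreated array.

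CCL13, or MCP-4, was at -0.18, -0.24 and -0.23 in untreated and at 0.70, 1.44 and 0.74 in stimulated cells, with a change of 1.17 ± 0.57 that did not pass (adjusted p = 0.790). CCL7, or MCP-3, stood at -0.10 ± 0.23 with overlapping groups.

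Of the 3 measured chemokines on the T-cell chemokine list used here 0 passed at 3 h with all sets, against 2.54% of all transcripts. Without set 1, CXCL10 passed at 3.68 (adjusted p = 0.000273) and CXCL11 at 1.89 (adjusted p = 0.0280). CXCL10, the interferon-induced ligand of CXCR3, was at -0.35, 0.04 and -0.10 in untreated and at 1.05, 4.01 and 3.28 in stimulated cells. The groups did not overlap, and the change was 2.92 ± 0.85 (adjusted p = 0.0904). It passed in 7 of the 9 alternatives that keep every array of the comparison, with an adjusted p from 0.000102 to 0.415 over the 9. Among the 7 was the fit on brighter probes, which were picked with the stimulated arrays included. CXCL11, another ligand of CXCR3, stood at 1.23 ± 0.89, with 0.09, -0.09 and -0.45 before and 0.00, 2.22 and 1.01 after. Its groups overlapped through set 1, where it did not move up. CCL5, or RANTES, gave 0.04 ± 0.67 with an interval from -1.37 to 1.44.

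ICAM1, through which epithelial cells hold leukocytes, rose by 3.48 ± 0.64 (SE, 11.2-fold, adjusted p = 0.00450, and adjusted p = 0.0752 without the block). Its level was -0.05, 0.24 and 0.69 on the untreated and 2.23, 5.21 and 3.89 on the stimulated arrays, with no overlap. It was the 1 that passed of the 6 measured adhesion molecules on the list used here, against 2.54% of all transcripts. The change was 4.09 without set 1, 2.74 without set 3 (limma adjusted p = 0.184) and 3.62 without set 4 (adjusted p = 0.486). With normexp background correction it was 4.25. VCAM1 was at 0.23 ± 0.27 and SELE, or E-selectin, at -0.12 ± 0.21, both at levels between -0.67 and 0.44 on all 6 arrays. ICAM2 stood at -0.12 ± 0.32 and ICAM3 at -0.02 ± 0.28.

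The ICAM1 promoter, at chr19:10270870-10271169 on the plus strand of GRCh38.p14, is shown for its match to the gamma-activated site, in capitals, 75 bases before the start.

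ICAM1: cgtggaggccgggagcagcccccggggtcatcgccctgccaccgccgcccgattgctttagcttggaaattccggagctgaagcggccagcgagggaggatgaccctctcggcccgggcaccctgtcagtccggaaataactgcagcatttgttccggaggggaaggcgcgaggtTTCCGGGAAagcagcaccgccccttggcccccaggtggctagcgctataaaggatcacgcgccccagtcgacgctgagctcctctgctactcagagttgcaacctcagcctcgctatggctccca

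IL6, a cytokine of the acute phase, went from 0.01, 0.30 and 0.59 to 1.40, 2.60 and 2.43. That was a rise of 1.84 ± 0.33 (SE, 3.58-fold, adjusted p = 0.00450, and adjusted p = 0.0248 without the block), and the paired differences of 1.39, 2.30 and 1.84 lay closer together than those of the chemokines that rose. Of the 20 measured interleukins on the list used here, which leaves out CXCL8, IL6 was the 1 that passed, against 2.54% of all transcripts. IL1B, the secreted form of interleukin-1, was at -0.00, -0.36 and -0.18 before and at 0.06, 2.38 and 1.87 after, a change of 1.62 ± 0.49 (adjusted p = 0.102). IL1A stood at 1.13 ± 0.34 (adjusted p = 0.102), with paired differences of -0.06 in set 1, 2.24 in set 3 and 1.21 in set 4. Set 1 thus moved little in both forms of interleukin-1, and without it IL1B passed at 2.39 and IL1A at 1.72. The median of the 20 interleukins was -0.13, against -0.09 over all 355 transcripts.

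The IL6 promoter lies at chr7:22726950-22727249 on the plus strand of GRCh38.p14, and the NF-κB match in capitals starts 73 bases before the start.

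IL6: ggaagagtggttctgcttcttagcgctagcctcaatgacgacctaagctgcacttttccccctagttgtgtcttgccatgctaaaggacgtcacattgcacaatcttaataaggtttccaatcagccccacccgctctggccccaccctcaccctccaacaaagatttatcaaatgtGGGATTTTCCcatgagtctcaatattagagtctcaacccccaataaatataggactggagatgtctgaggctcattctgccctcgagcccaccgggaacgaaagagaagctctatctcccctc

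Inhibitors of NF-κB hold back the factor that induces them. Of the 6 measured on the list used here 2 rose, against 2.54% of all transcripts. NFKBIA encodes IκBα, which keeps NF-κB in the cytoplasm. Its level was 0.24, 1.40 and 1.63 on the untreated and 1.81, 4.32 and 4.02 on the stimulated arrays. Untreated cells of sets 3 and 4 thus started higher than those of set 1, yet the stimulated array of set 1 still exceeded all 3 untreated arrays. The rise was 2.29 ± 0.55 (SE, 4.90-fold, adjusted p = 0.0285, and adjusted p = 0.984 without the block). With quantile normalisation it was 1.34 (adjusted p = 0.0251).

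TNFAIP3, or A20, which removes ubiquitin chains from signalling proteins, was at 0.18, -0.17 and -0.22 before and at 1.78, 2.30 and 1.19 after. It rose by 1.82 ± 0.43 (SE, 3.54-fold, adjusted p = 0.0285, and adjusted p = 0.0484 without the block), by 3.07 with normexp, and was the 1 transcript of the 9 that moved least in set 4. BCL3, an atypical IκB protein of the nucleus, stood at 1.10 ± 0.30 (adjusted p = 0.0634), with -0.04, 0.40 and 0.57 before and 0.67, 2.07 and 1.51 after. NFKBIE, NFKBIB and NFKBIL1 stood at 0.62 ± 0.41, 0.33 ± 0.26 and 0.03 ± 0.19. All 6 were above 0, as were 113 of all 355 transcripts, and their median was 0.86 against -0.09.

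The promoters of both are shown for their matches to the NF-κB consensus, in capitals. NFKBIA lies at chr14:35404700-35404999 on the minus strand and TNFAIP3 at chr6:137867009-137867308 on the plus strand of GRCh38.p14.

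NFKBIA: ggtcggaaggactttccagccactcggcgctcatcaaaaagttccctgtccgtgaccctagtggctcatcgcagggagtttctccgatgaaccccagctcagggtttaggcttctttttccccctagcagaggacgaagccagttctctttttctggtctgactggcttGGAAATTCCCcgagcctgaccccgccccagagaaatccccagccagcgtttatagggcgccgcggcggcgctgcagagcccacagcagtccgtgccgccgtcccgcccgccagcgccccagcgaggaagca

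TNFAIP3: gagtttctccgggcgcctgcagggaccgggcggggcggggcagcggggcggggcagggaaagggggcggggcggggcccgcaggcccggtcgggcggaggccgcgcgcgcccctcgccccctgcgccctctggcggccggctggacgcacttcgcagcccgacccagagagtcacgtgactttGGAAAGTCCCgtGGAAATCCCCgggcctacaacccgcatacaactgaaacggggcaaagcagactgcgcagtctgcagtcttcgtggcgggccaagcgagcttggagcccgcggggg

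NFKBIA holds 1 match, 81 bases before the start, and TNFAIP3 holds 2 that do not overlap, 67 and 55 bases before it. Of the 9 transcripts that rose, 8 had a promoter entry, and 5 of these (62.5%) held the NF-κB consensus and 3 (37.5%) the gamma-activated site. CCL8 was the other gene with a gamma-activated site.

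The 5 subunits of NF-κB itself did not pass, and all 5 were above 0 in each of the 3 sets, which held for 13.2% of all 355 transcripts. RELA stood at 0.98 ± 0.48, NFKB1 at 0.63 ± 0.23, NFKB2 at 0.45 ± 0.26, RELB at 0.32 ± 0.22 and REL at 0.29 ± 0.17 (adjusted p = 0.264 for NFKB1, and 0.790 or more for the others). NFKB1, NFKB2 and RELB had groups that did not overlap, with the stimulated arrays higher, which held for 5.63% of all 355 transcripts. For NFKB1 the levels were 0.02, 0.17 and -0.21 before and 0.28, 1.34 and 0.25 after.

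Upstream of NF-κB the shares that passed can be read against the 2.54% of all transcripts, at which short lists may hold 0. The receptors TNFRSF1A and TNFRSF1B stood at 0.16 ± 0.35 and -0.06 ± 0.39. Of 12 measured members of the list of the IKK complex and kinases above it 0 passed, with changes from -0.33 to 0.26 and a median of -0.01. Of 9 TRAF and death-domain adaptors 0 passed, from -0.42 to 0.31, with TRAF5 the lowest. All 9 Toll-like receptors with values, TLR5 at -0.24 among them, stood below 0 by 0.24 or less, and their median of -0.19 can be read against the -0.09 of all transcripts.

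On the IFNγ route, 0 of the 10 measured members of the JAK-STAT and SOCS list passed, against 2.54% of all transcripts. Without set 1 there was 1, and with quantile normalisation 1. At that share a list of this length may hold 0. SOCS3, a feedback inhibitor of JAK kinases, stood at 1.00 ± 0.51 (adjusted p = 0.872), from 0.35, 0.34 and 0.26 to 1.29, 1.87 and 0.79, with no overlap. SOCS1 was at 0.18 ± 0.43. The kinases JAK1, JAK2, JAK3 and TYK2 stood between -0.10 and 0.07, and STAT6, which carries interleukin-4 signals, at -0.02 ± 0.24. STAT4, which carries interleukin-12 signals in lymphocytes, was the transcript with the lowest change, -0.50 ± 0.21 (adjusted p = 0.486), from 0.00, -0.40 and -0.43 to -0.88, -0.58 and -0.87. On the untreated array of set 1 it stood at the array median, and below the median on the other 5 arrays.

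**Figure D2:**
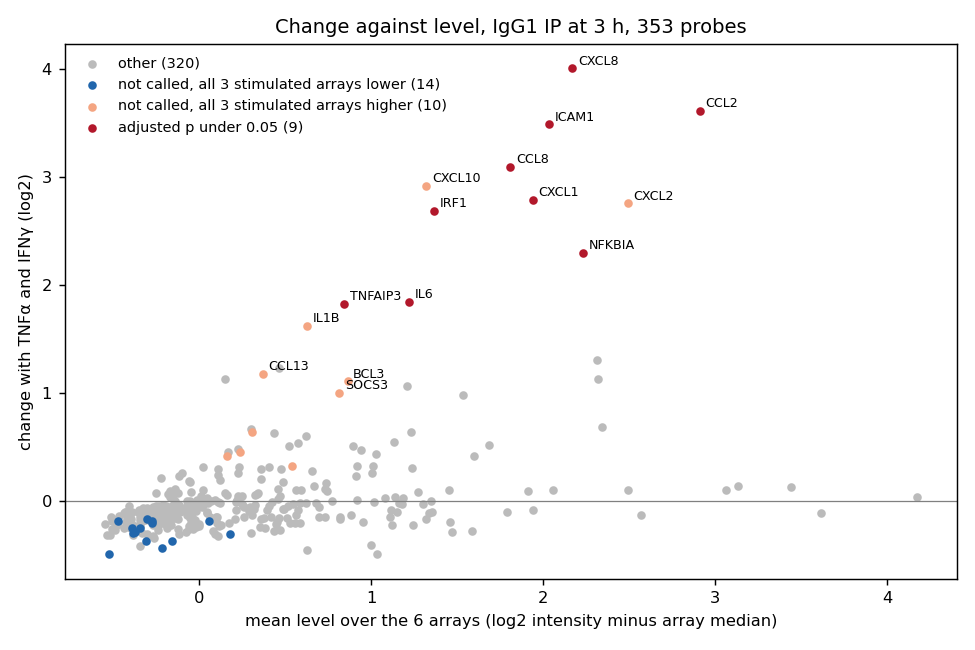
Change with stimulation (log2) against the mean level over the 6 arrays (log2 intensity minus array median) for 353 transcripts. The 9 that rose and the 10 others whose stimulated arrays all lay higher spread upwards to 4.00, while the 14 whose stimulated arrays all lay lower stay within -0.50 of no change. Many levels lie close to the dimmest transcripts, and whether that limited the falls was not tested.

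With the arrays centred on their median, positive changes reached further than negative ones. The lowest change among all 355 transcripts was -0.50 and the highest 4.00, and the 5th and 95th percentiles were -0.31 and 1.11. The lowest change depended on the scaling. With quantile normalisation it was -1.31, for CALM3, which then passed as lower together with CSNK2B at -1.04 and PCGF2 at -1.02. With normexp it was -1.59, for XCL2, which did not pass. The highest changes in these settings were 3.61 and 5.24. All 3 stimulated arrays lay below all 3 untreated ones for 14 transcripts (3.94%). They included STAT4, SMAD9 at -0.43 ± 0.18, NUP214 at -0.37 ± 0.15 and CDC25A at -0.31 ± 0.18, which encode a lymphocyte signal carrier, a mediator of BMP signals, a nuclear pore protein and a cell-cycle phosphatase. None of these passed. More transcripts were lower in all 3 sets (97, or 27.3%) than higher in all 3 (47, or 13.2%), and the median change over all transcripts was -0.09.

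Lists of genes known to answer each cytokine were counted as well. Of 36 measured genes inducible by NF-κB, 8 passed, against 9 of all 355 (2.54%). Of the 36, 32 were above 0, as were 113 of all 355, and the median was 0.44 against -0.09 over all transcripts. Of 17 measured genes inducible by IFNγ, 4 passed, namely CCL2, CCL8, ICAM1 and IRF1, 16 were above 0 and the median was 0.66. CCL8 was the 1 transcript that rose and was not on the NF-κB list. The lists overlap, and their members were picked with earlier results known and with chemokines named in the series title, so these counts are descriptions and not independent evidence. Of the 20 other chemokines and 16 chemokine receptors 0 passed, with medians of -0.15 and -0.11.

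Of the transcripts that did not pass, CDKN1A, a cell-cycle inhibitor, stood at 1.31 ± 0.45, with 1.92, 1.59 and 1.47 before and 1.87, 3.88 and 3.15 after. FOSL1, a subunit of AP-1, was at 1.12 ± 0.41, from 1.48, 2.08 and 1.71 to 1.88, 3.76 and 3.00. In both the groups overlapped through set 1. JUNB, JUN and FOSL2 lay between 0.51 and 0.60, while FOS, an early AP-1 subunit, was at -0.13 ± 0.18. The complement genes CFB and C3 stood at 0.66 ± 0.35 and 0.48 ± 0.30, above 0 in all 3 sets, and TNF itself at 0.29 ± 0.32.

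The sets differed in how far they moved. Over the 9 transcripts that rose, the paired differences had a median of 1.6 in set 1, 3.60 in set 3 and 3.21 in set 4. Set 3 moved most in all 9 and set 1 least in 8. Since the 9 were chosen by this contrast, these medians are descriptions. Dropping the stimulated array of set 3 left 1 transcript that passed, IRF1, while dropping the stimulated array of set 1 left 10. Dropping any 1 of the other 4 arrays left 4 or 5.

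A group of transcripts parted set 1 from the other sets whatever the treatment. Taking a gap of at least 1.5 on the log2 scale between both arrays of set 1 and all 4 arrays of sets 3 and 4, a rule chosen after the values were seen, 14 transcripts were higher in set 1 and 1 was lower. XCL2, a chemokine of T and NK cells, stood at 3.98 and 3.49 in set 1 and between -0.79 and -0.06 in sets 3 and 4. Its near-identical relative XCL1 was at 2.92 and 2.61, against -0.76 to -0.03. IL17RA was at 3.72 and 3.38, CSF1 at 4.02 and 3.40, and MYC at 5.57 and 5.12. CDKN2B, a cell-cycle inhibitor, ran the other way, at -0.07 and -0.11 in set 1 and from 2.61 to 3.72 in the others.

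**Figure D3:**
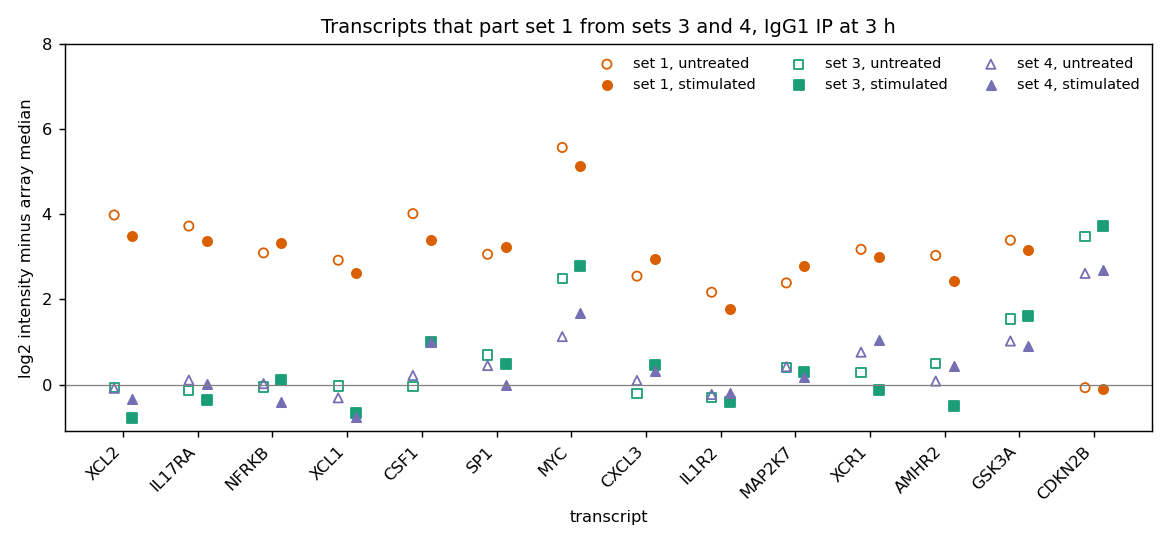
Levels (log2 intensity minus array median) of 14 transcripts that part set 1, with open symbols for untreated and filled symbols for stimulated arrays. The symbols of set 1 lie apart from those of sets 3 and 4 in both treatments.

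None of these 15 was among the 9 that rose. Under the gap rule stimulated and untreated arrays overlap, while in the 9 they did not. Given that, no transcript could be in both groups. Of the leukocyte markers, CD3G, a chain of the T-cell receptor complex, was at 1.22 and 1.15 in set 1 and from -0.71 to -0.28 in sets 3 and 4, while CD3E and PTPRC, which marks all leukocytes, were at -0.40 and -0.19 in untreated cells of set 1. The summed linear level of the 10 markers, where 1 is the array median, was 10.6, 8.83 and 9.77 on the untreated arrays of sets 1, 3 and 4, and 10.1, 8.13 and 9.0 on the stimulated ones. It thus differed more between sets than with stimulation. The median marker was at -0.18, -0.14 and -0.10 on the untreated arrays of sets 1, 3 and 4, so the sum may hold mostly background. In set 1 CD3G was the highest of the 10. The part of any of this in the smaller response of set 1 was not tested.

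The same treatments were read with the anti-HuR antibody, which asks whether the response in the IgG1 IP differs from that in the HuR IP. Within the HuR IP 8 transcripts rose at 3 h (2.25%), and 2 without the block (0.563%). No transcript passed the test of the difference between the antibodies (0 of 355, and 0 at an unadjusted p under 0.05, with limma and the set as a block). A calibrated test would give some unadjusted p under 0.05 even without differences, so this test may be too cautious and its intervals too wide. The fit has no term for what arrays of the same set, time and treatment share. CXCL8 changed by 4.00 in the IgG1 IP and 3.93 in the HuR IP, and the interval of the difference ran from -2.17 to 2.33. For IRF1 it was 2.69 and 2.75, with an interval from -1.20 to 1.08. ICAM1 changed by 3.48 and 3.38 (-1.79 to 2.01), CCL2 by 3.61 and 3.34 (-2.38 to 2.92) and IL6 by 1.84 and 1.64 (-0.79 to 1.19). For the 9 transcripts that rose the difference lay between -0.25, for CXCL1, and 0.30, for TNFAIP3. For each of the 9 the interval reached past 1 or -1, so it does not show that both responses were alike.

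**Figure D4:**
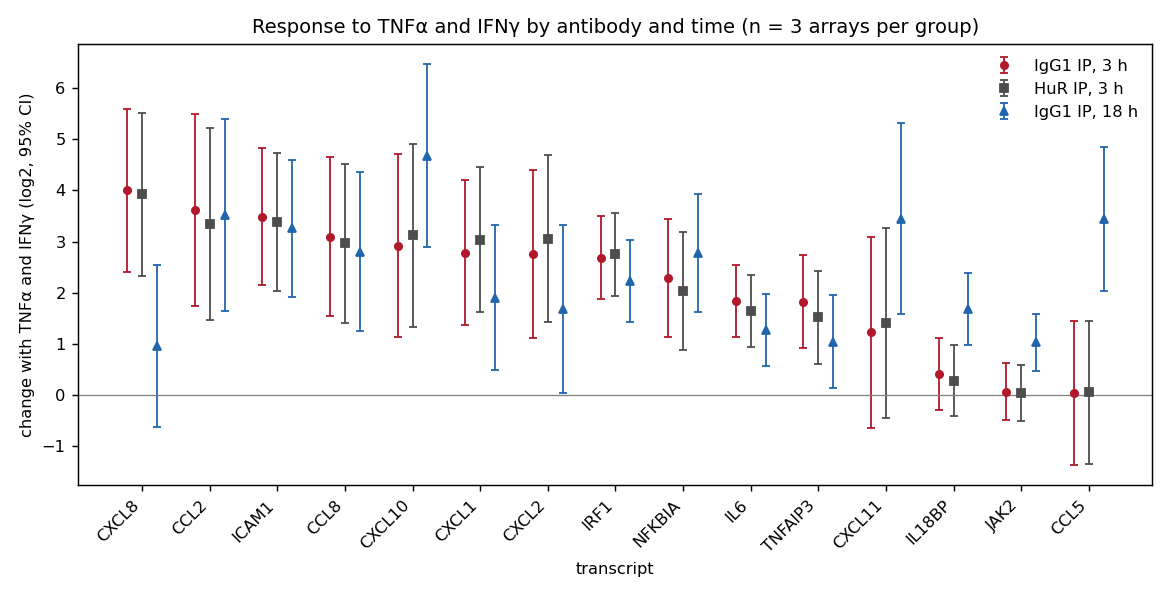
Change with TNFα and IFNγ (log2, points, with 95% confidence intervals of the limma fit, n = 3 arrays per group) in the IgG1 IP at 3 h, the HuR IP at 3 h and the IgG1 IP at 18 h. In the IgG1 IP CXCL8 is at 4.00 at 3 h and 0.96 at 18 h, and CCL5 at 0.04 and 3.44, and neither difference passed the test over all transcripts.

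The 18 h arrays of the same antibody put the early response beside a later one. In them 18 transcripts rose (5.07%), and 5 without the block (1.41%). No transcript passed the test of the difference between times (0 of 355, and 7 at an unadjusted p under 0.05, of which 5 were higher at 18 h). CXCL8 was among the 7, with a change of 4.00 at 3 h and 0.96 at 18 h, a difference of -3.04 with an interval from -5.29 to -0.79 (adjusted p = 0.998). At 18 h its level was -0.41, 0.09 and -0.48 in untreated and 0.03, 1.41 and 0.65 in stimulated cells. CCL5 ran the other way, from 0.04 to 3.44, a difference of 3.41 with an interval from 1.42 to 5.39 (adjusted p = 0.727). Its stimulated arrays were at 0.03, -0.14 and -0.34 at 3 h and at 0.97, 5.51 and 3.66 at 18 h.

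IL18BP, which neutralises interleukin-18, changed by 0.41 at 3 h and 1.68 at 18 h (interval of the difference from 0.27 to 2.25), and JAK2 by 0.07 and 1.03 (0.18 to 1.75). For the other 8 transcripts that rose at 3 h the difference between times lay between -0.88, for CXCL1, and 0.48, for NFKBIA. Without set 1 the differences of CCL5 (4.67), CXCL11 (3.25) and CXCL8 (-3.77) passed. Without centring the arrays that of CXCL8 passed as well, at -4.26, with the median of all transcripts at -1.15.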

How the data were processed

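RNA from the immunoprecipitates was labelled with 33P by reverse transcription and hybridised to membranes, per the labels' protocols. The intensity values were deposited as whole numbers in a table that its name calls non-normalized, and no source used here states how background was handled. A further table deposited by the authors equals it times 1 factor per array (0.585 to 1.79 on the 6 arrays). Of 384 probes 355 had values. For 342 the symbol came from the deposited accession through RefSeq (GRCh38.p14), and 13 keep the file's symbol.

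Each array's log2 intensities were centred on their median. All 24 arrays were fitted with limma 3.58.1 in R 4.3.3 (lmFit, eBayes), with 1 coefficient per group and the set as a block, because the comparison is defined as paired by set. The fit was run on 12 simulated datasets as a check of the code, with noise of 1 size and a set effect that only adds. These had no response that differs by set, so they do not show how the fit performs on these arrays. Same-numbered stimulated and untreated arrays deviated together from their group means (correlations of 0.819, 0.773 and 0.791 in sets 1, 3 and 4). The number of arrays limits the precision. The alternatives were other scalings, a background correction, brighter probes, fewer arrays, array weights and leaving out each set or array.

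Named were the transcripts that passed, up to 15 per direction; the 5 largest rises and 5 largest falls of 1 sign in all sets that did not pass; members of 8 lists; and up to 4 members of each other list. CDC25A, NUP214, CALM3, CSNK2B, PCGF2 and the transcripts that part set 1 fall outside this rule and were chosen after their values were seen, as were those named for 18 h. The comparison, lists and alternatives were chosen with earlier results of these data known. A few transcripts are not reported here and are left out of the plots.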

Additional observations from a re-analysis of the deposited data

How the results depend on the processing

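The count of transcripts that rose at 3 h in the IgG1 IP was 9. It moved to 4 with no replicate block, to 16 with quantile normalisation (13 higher, and CALM3, CSNK2B and PCGF2 lower), to 3 when only the 12 IgG1 arrays were fitted and to 23 with array weights (20 higher, 3 lower). It stayed within 1.5 times without centring (9), in the second deposited table (9) and with normexp at an offset of 50 (10). It also did among the brighter probes, those above the median probe (12), and with only the 6 arrays (12). The second table equals the first times 1 factor per array and was not centred. In both uncentred fits CXCL10 and CXCL2 passed in place of IL6 and TNFAIP3. Over the fits that left out a set or a single array the count ran from 0 to 18. CXCL8 and IRF1 passed in all 9 alternatives that keep every array of the comparison, ICAM1, CCL2, CCL8, CXCL1 and IL6 in 7, and NFKBIA and TNFAIP3 in 6. Among the 9 was the fit on brighter probes, which were picked with the stimulated arrays included. That fit is therefore no independent check of a rise. In the 9 fits that left out a set or an array, IRF1 passed in 7, CXCL8, ICAM1 and IL6 in 6, and the other 5 in 2. None of these 9 transcripts changed direction in any of these settings, which was largely fixed in advance. Without the block, among the brighter probes and with only the 6 or the 12 arrays, the change itself is the same. Without centring, every change shifts by the same amount. All 3 paired differences of each were above 0, so leaving out a set could not reverse it. IL6 and TNFAIP3 did not pass without centring (adjusted p = 0.0819 for both) or in the second table (adjusted p = 0.167 for both). The median of all transcripts lay at -0.20 with normexp. The count for the IgG1 IP against the HuR IP was 0 in the 9 alternatives run for it: no block, the 3 other scalings, normexp, the brighter probes and without each set. That for 18 h against 3 h was 0, and became 1 without centring and 1 in the second table (CXCL8 in both), where the median of all transcripts was -1.15 and -1.50, and 0 to 3 when a set was left out. The cause of these shifts was not tested. Many levels lie close to the dimmest transcripts, which limits what small changes can show.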
